A study of Mus musculus with 37 samples.

Results

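Immediate early genes and heat shock genes were followed across macrophages and fibroblasts that had been cultured together, with each library given its own value. The set was a named list of 35 genes, kept where a gene had a row in both raw count tables. That left 34 genes, 24 immediate early and 10 heat shock, of 11965 genes in the macrophage table and 14028 in the fibroblast table. Dnaja1, an HSP40 co-chaperone, had no row in the macrophage table and is not described further. All 34 passed the filter on low counts in macrophages, among 10295 genes tested. In fibroblasts 33 passed, among 12421 genes tested, and Dusp2 did not.

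The study asked how fibroblasts of different organs and macrophages affect each other. Cells came from BALB/c female mice of 8 weeks. The macrophages were grown from bone marrow with medium conditioned by L929 cells, a fibroblast line whose secretions include CSF1, a growth factor of macrophages. The fibroblasts came from mesometrial fat (called fat below), lung or mammary fat pad (called mammary). They were digested with collagenase and DNase, expanded in culture, trypsinized and depleted of cells bearing the epithelial protein EpCAM or the leukocyte protein CD45. Mammary and fat fibroblasts were pooled from 2 females per replicate. Both cell types were plated on collagen I in DMEM with serum, and co-cultures and mono-cultured fibroblasts were collected after 7 days. Live cells were sorted as positive (macrophages) or negative (fibroblasts) for F4/80 and CD11b. There were 4 macrophage libraries after co-culture with each organ's fibroblasts and 4 of macrophages collected at day 0, which serve as their control. Fibroblasts had 3 co-culture and 2 mono-culture libraries for fat, 3 and 3 for lung, and 5 and 5 for mammary. Day-0 macrophages did not have these 7 days of culture. Time in culture, the presence of fibroblasts and any difference in medium, plating or handling cannot be told apart in any comparison with day 0. The comparisons between organs share the same time. Whether co-cultures of different organs were plated, sorted and handled together was not established here. Organ and any difference in handling cannot be told apart in them. The labels call the mammary and fat fibroblast replicates biological. For macrophages they say only repetition, so those p-values reflect variation among libraries that may be technical. For lung fibroblasts no number of pooled females is given, and whether their replicates were biological was not established here. The p-values with lung fibroblasts may therefore reflect technical variation too.

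Immediate early genes are transcribed within minutes of a stimulus from factors that are already present in the cell, so they need no new protein synthesis. Growth factors, adhesion, cytokines and the handling of cells all raise them. Serum response factor, which binds the CArG box, and CREB and AP-1 family factors, which bind TGACGTCA and TGANTCA, drive many of them. Heat shock genes encode chaperones that fold or refold proteins. HSF1 induces them through arrays of GAA and TTC units when unfolded protein accumulates, and several are also made constitutively.

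The letters that these factors bind were looked for in promoter sequence. RefSeq promoters of build GRCm38.p6, covering 250 bases before to 50 after the start, matched 29 of the 34 genes, 21 immediate early and 8 heat shock. Both strands were searched. GAANNTTC, a pair of facing heat shock units, lay in 7 of 8 heat shock promoters (87.5%), in 1 of 21 immediate early promoters (4.76%) and in 9.04% of all 27025 genes. The longer element of 3 alternating units (GAANNTTCNNGAA or TTCNNGAANNTTC), which contains the shorter one, lay in 3 of 8 heat shock promoters, those of Hsph1, Hspd1 and Hspe1, and in 0.662% of all genes. These promoters are not all separate sequences: the windows of Hspd1 and Hspe1 overlap by up to 285 bases, and those of Hspa1a and Hspa1b are 98.7% identical over 300 bases. TGACGTCA lay in 3 of 21 immediate early promoters, those of Maff, Dusp1 and Btg2 (14.3%, against 2.03% of all genes). A CArG box lay in those of Egr2, Dusp5 and Zfp36 (14.3%, against 1.81%). TGANTCA lay in 0 of 21 immediate early promoters and in 1 of 8 heat shock promoters, that of Bag3 (12.5%), against 8.97% of all genes. A match describes the letters in this window and does not show that a factor binds there.

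The promoters of Dusp1, Dusp5 and Btg2 are shown as examples that hold TGACGTCA or a CArG box. These genes were also among the macrophage genes that separated the organs. Atf3, Fos, Fosb, Jun, Junb, Klf6, Rhob, Dusp2 and Ier5, called in the same organ comparisons, held neither TGACGTCA nor a CArG box. Each promoter is shown from 250 to 51 bases before the start. Capitals mark TGACGTCA in Dusp1 (143 bases before the start) and Btg2 (166 bases before), and a pair of adjoining CArG boxes in Dusp5 (82 and 72 bases before). The windows are chr17:26508523-26508722 on the minus strand, chr1:134079206-134079405 on the minus strand and chr19:53528895-53529094 on the plus strand.
Dusp1: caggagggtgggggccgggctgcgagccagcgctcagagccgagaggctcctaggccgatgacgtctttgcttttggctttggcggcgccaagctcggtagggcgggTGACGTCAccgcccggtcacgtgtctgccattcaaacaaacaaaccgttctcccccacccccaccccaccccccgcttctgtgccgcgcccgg
Btg2: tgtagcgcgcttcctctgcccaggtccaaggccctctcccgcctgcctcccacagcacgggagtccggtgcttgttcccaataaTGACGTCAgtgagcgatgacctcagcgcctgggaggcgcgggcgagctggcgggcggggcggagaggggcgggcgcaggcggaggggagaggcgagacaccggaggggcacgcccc
Dusp5: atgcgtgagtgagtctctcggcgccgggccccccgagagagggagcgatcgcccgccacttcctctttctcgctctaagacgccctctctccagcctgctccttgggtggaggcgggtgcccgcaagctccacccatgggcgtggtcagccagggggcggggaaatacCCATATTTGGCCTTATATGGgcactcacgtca

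Hspa1a and Hspa1b are shown because Hspa1a was the gene called in mammary fibroblasts and Hspa1b is its near-identical copy, and capitals mark GAANNTTC at 104 bases before both starts. Their windows, chr17:34972207-34972406 and chr17:34959289-34959488 on the minus strand, differ at 2 of the 200 positions shown. Reads of such copies may have been divided between them or lost in counting, so the split between them is uncertain. For Hspe1, which faces Hspd1 across a shared promoter, capitals mark alternating units from 89 bases before the start, in chr1:55088053-55088082 on the plus strand.
Hspa1a: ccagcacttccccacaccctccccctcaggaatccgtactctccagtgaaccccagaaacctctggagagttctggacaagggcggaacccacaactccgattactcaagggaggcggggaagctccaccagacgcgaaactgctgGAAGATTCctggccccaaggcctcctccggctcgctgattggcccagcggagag
Hspa1b: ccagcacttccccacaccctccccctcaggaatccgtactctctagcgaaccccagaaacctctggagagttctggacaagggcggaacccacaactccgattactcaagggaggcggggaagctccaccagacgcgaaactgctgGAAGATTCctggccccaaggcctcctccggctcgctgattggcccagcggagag
Hspe1: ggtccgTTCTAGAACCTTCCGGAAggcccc

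Levels are given as deposited read counts scaled to library size in the usual unit CPM, with trimmed-mean (TMM) library scaling, in library order 1 to 4 unless stated. Library totals were 3040103 to 6223115 counts in macrophages and 3304605 to 7487355 in fibroblasts, so 3 counts, taken as the floor, correspond to at most 0.977 CPM. A gene is called where edgeR's quasi-likelihood test gave a Benjamini-Hochberg adjusted p under 0.05 over all genes of its table. Summed macrophage markers were at 47910 to 82029 CPM in every macrophage library. Summed fibroblast markers, 13 of 14 of which had a row, were at 7.87 to 20.1 CPM in day-0 macrophages. They were at 234 to 420 after fat, 132 to 265 after lung and 425 to 561 after mammary co-culture, and none of the 13 was at 0 in all libraries of any group. The part of this fibroblast RNA in the changes against day 0 was not tested. In bulk RNA, fewer cells of a type and less RNA per cell cannot be told apart.

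In macrophages, most immediate early genes were higher after fat or lung co-culture than at day 0, and fewer were after mammary co-culture. With fat fibroblasts 19 of the 24 were called higher and 1 lower, with lung 17 and 1, and with mammary 7 and 5. The heat shock genes gave 1 higher and 3 lower with fat, 1 and 1 with lung, and 1 and 2 with mammary. Over all tested genes, 15.8% were called higher and 14.4% lower with fat, 14.6% and 13.2% with lung, and 14.4% and 11.8% with mammary (30.2%, 27.8% and 26.1% in either direction). The median log2 change of all 34 was 0.91 with fat, 0.88 with lung and -0.14 with mammary, where all genes had medians of -0.01 each. For the 24 immediate early genes it was 1.47, 1.04 and 0.30, and for the 10 heat shock genes -0.09, -0.14 and -0.23. The 3 comparisons share the day-0 libraries.

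**Figure D1:**
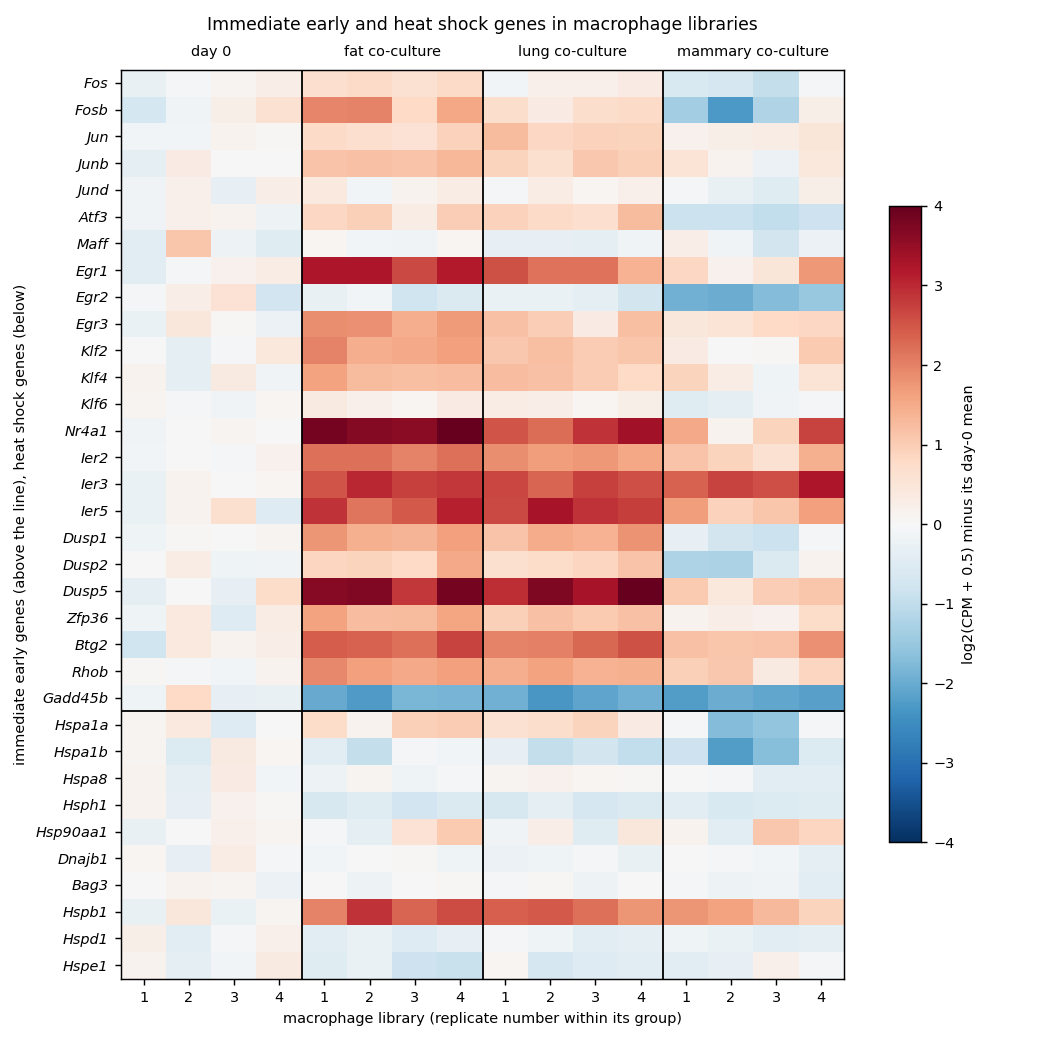
Level of each gene (rows) in each of the 16 macrophage libraries (columns) as log2(CPM + 0.5) minus the gene's mean over the 4 day-0 libraries; red is above and blue below day 0. Red fills most immediate early rows in the fat and lung columns and thins in the mammary columns, while Gadd45b is blue in all 12 co-culture libraries.

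AP-1 is the dimeric factor formed by FOS and JUN family proteins. Fos was at 270.1, 316, 364 and 407 CPM at day 0, 533, 571, 515 and 565 after fat, 313, 389.7, 389.9 and 423 after lung, and 221, 211, 172 and 319 after mammary co-culture. Every fat library was above every day-0 library, the lung libraries overlapped day 0, and 3 of 4 mammary libraries were below all day-0 libraries. Fos rose by 0.69 ± 0.16 (log2, SE) with fat (edgeR adjusted p = 0.0024) and fell by 0.56 ± 0.16 with mammary (adjusted p = 0.013; 0.054 without day-0 replicate 4), and lung gave 0.16 ± 0.16 (adjusted p = 0.50).

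Fosb, a close FOS relative, was at 4.64, 7.16, 9.41 and 12.4 CPM at day 0, 32.0, 33.0, 13.99 and 24.1 after fat, 13.2, 10.1, 13.2 and 13.8 after lung, and 2.71, 1.23, 3.13 and 9.39 after mammary co-culture. It was called against day 0 with fat, where no library overlapped day 0. Jun, the main JUN partner, was at 168, 167, 201 and 187 CPM at day 0, 308, 288, 269 and 342 after fat, 438, 320.4, 341 and 334 after lung, and 203, 213, 222 and 252 after mammary co-culture. For Jun, fat and lung libraries lay above all others and the mammary libraries just above day 0, with log2 changes of 0.74 ± 0.12 and 0.99 ± 0.12, against 0.30 ± 0.12 with mammary (edgeR adjusted p = 7.8e-05, 2.7e-06 and 0.069). Junb, a JUN relative with weaker transactivation, was at 208, 333, 271 and 268 CPM at day 0, 587, 606, 589.9 and 665 after fat, 492, 416, 563 and 518 after lung, and 389, 295, 225 and 354 after mammary co-culture. Its fat and lung libraries also stood clear of both other groups.

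Atf3 encodes a stress-induced bZIP factor that restrains inflammatory genes in macrophages. It was at 429, 543, 517 and 407 CPM at day 0, 833, 909, 579.7 and 922 after fat, 886, 804, 743 and 1136 after lung, and 257, 261, 240.1 and 264 after mammary co-culture. All fat and lung libraries were above, and all mammary libraries below, the whole day-0 range. The log2 changes were 0.78 ± 0.15, 0.91 ± 0.15 and -0.89 ± 0.15 (edgeR adjusted p = 0.00051, 0.00011 and 0.00015), and the mammary decrease was called in all 12 alternatives run. Jund, the least inducible JUN protein, and Maff, a small MAF factor, were not called in any co-culture.

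**Figure D2:**
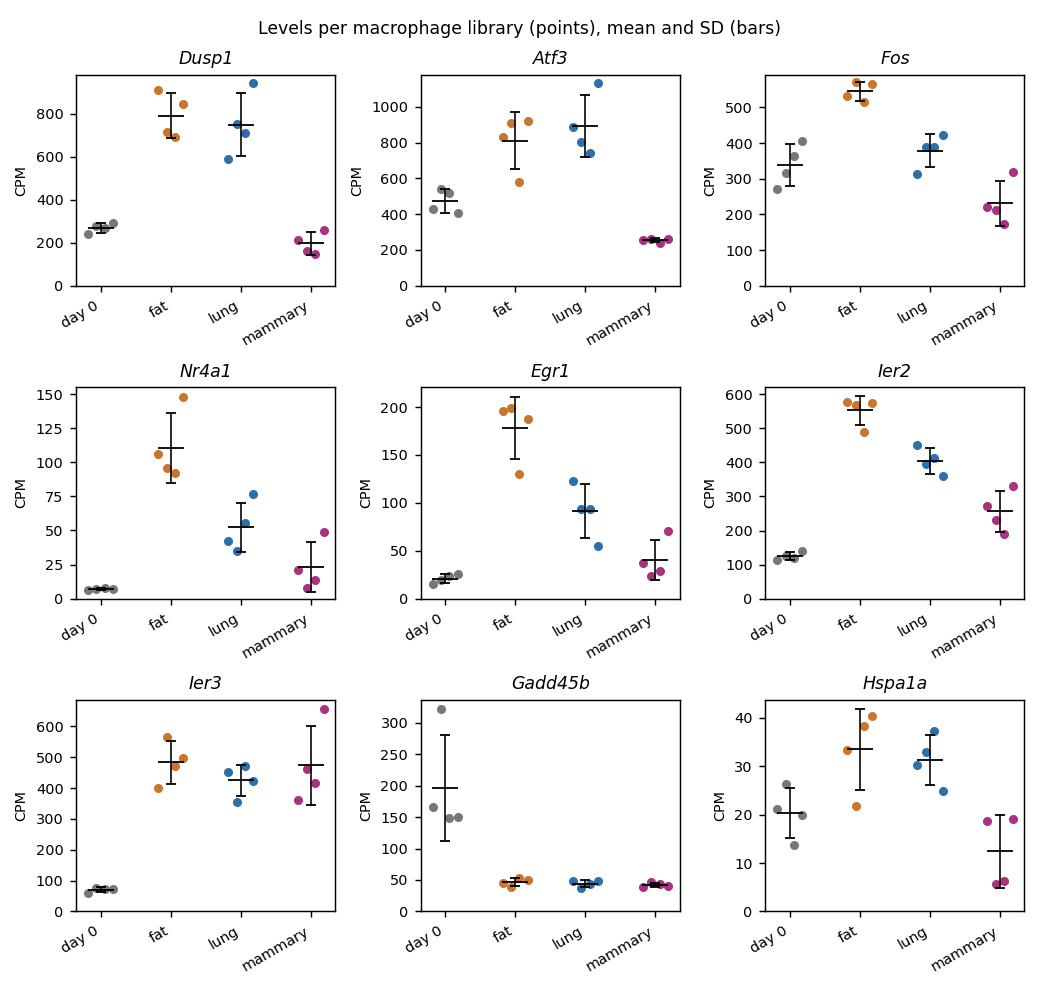
CPM (vertical axis, from 0) of 9 genes in each macrophage library (points) by group, with mean and SD (bars, n = 4). For Dusp1, Atf3 and Fos the mammary means lie below day 0 while the fat means lie above it; for Ier3 the 3 co-cultures lie together above day 0, and for Gadd45b together below it.

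Among the zinc-finger and nuclear receptor factors, 5 of 7 were called higher with fat and 5 with lung, and with mammary 2 were higher and 1 lower. Nr4a1 (NUR77), an orphan nuclear receptor that limits inflammatory activation, was at 6.38, 7.16, 7.74 and 7.04 CPM at day 0, 106, 96.1, 92.2 and 148 after fat, 42.6, 34.97, 55.2 and 76.4 after lung, and 21.2, 7.89, 13.6 and 49.1 after mammary co-culture. All 12 co-culture libraries were above day 0, and the mammary libraries spread most widely. The log2 changes were 3.96 ± 0.48, 2.89 ± 0.48 and 1.70 ± 0.49 (edgeR adjusted p = 2.2e-05, 0.00041 and 0.019); the mammary call was lost without day-0 replicate 1 (adjusted p = 0.056).

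Egr1, a zinc-finger factor induced by ERK signalling, was at 15.3, 19.9, 23.4 and 25.3 CPM at day 0, 196, 199, 130.4 and 188 after fat, 123, 93.7, 93.6 and 54.7 after lung, and 37.2, 23.3, 29.3 and 70.3 after mammary co-culture. Fat and lung libraries stood clear of day 0, while 1 mammary library (23.3 CPM) fell within the day-0 range. Egr1 rose by log2 3.09 ± 0.33 with fat, 2.12 ± 0.33 with lung and 0.93 ± 0.33 with mammary (edgeR adjusted p = 4.5e-06, 0.00017 and 0.048). The mammary call was lost in 9 of 12 alternatives, among them the omission of any day-0 library or of mammary replicate 1 or 4, with log2 changes of 0.51 to 1.12 and adjusted p up to 0.18.

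Egr2, a relative of Egr1 that macrophages express after alternative activation, behaved differently. It was at 26.3, 33.9, 42.4 and 16.1 CPM at day 0, 22.9, 25.9, 15.9 and 18.4 after fat, 23.3, 23.1, 21.4 and 16.5 after lung, and 7.02, 6.66, 8.04 and 9.39 after mammary co-culture. Every mammary library was below every other library. The decrease of 1.93 ± 0.24 on the log2 scale with mammary was called (edgeR adjusted p = 6.1e-06), and neither fat nor lung was. Egr3, at 3 or 4 reads in each day-0 library, reached 3.08 to 4.19 CPM after fat, 1.14 to 2.53 after lung and 1.28 to 1.81 after mammary co-culture, and was called with fat and lung.

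The Krüppel-like factors Klf2 and Klf4 restrain inflammatory genes or mark alternative activation in macrophages. Klf2 was at 128, 100.3, 125 and 171 CPM at day 0, 507, 349.6, 371 and 399 after fat, 273, 295, 258 and 278 after lung, and 162, 126, 132 and 267 after mammary co-culture. Klf4 was at 42.3, 30.3, 49.97 and 34.8 CPM at day 0, 118, 93.8, 90.6 and 90.8 after fat, 91.0, 88.6, 78.4 and 67.9 after lung, and 71.6, 47.3, 34.4 and 56.2 after mammary co-culture. For both, fat and lung libraries did not overlap day 0 and fat had the highest mean, and mammary libraries overlapped day 0. Klf2 rose by log2 1.63 ± 0.21 with fat and 1.07 ± 0.21 with lung. Klf6, another factor of this family and the most counted of the group at day 0, was at 170.2 to 202 CPM there and was not called in any co-culture.

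Of the 10 feedback regulators and other early products, 9 were called higher and 1 lower with fat and with lung each, and with mammary 5 were higher and 2 lower. Ier3, a survival-related early response protein, was at 58.5, 76.8, 71.3 and 74.3 CPM at day 0, 399, 565, 471 and 497 after fat, 451, 356, 472 and 422 after lung, and 360.3, 462, 418 and 655 after mammary co-culture. The co-cultures overlapped each other and none came near day 0. The log2 changes were 2.78 ± 0.17, 2.60 ± 0.17 and 2.76 ± 0.17 (edgeR adjusted p = 5.2e-10, 1.5e-09 and 4.5e-10).

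Gadd45b, a growth-arrest and stress sensor that binds the kinase MTK1, moved the other way. It was at 165, 321, 149 and 149.6 CPM at day 0, 45.9, 38.3, 52.4 and 50.2 after fat, 49.0, 36.8, 42.9 and 48.5 after lung, and 38.8, 46.5, 43.8 and 40.6 after mammary co-culture. Day-0 replicate 2 was the highest, and every co-culture library lay below all day-0 libraries. It fell by log2 2.07 ± 0.21, 2.14 ± 0.21 and 2.20 ± 0.21 (edgeR adjusted p = 4.6e-07, 3.9e-07 and 2.5e-07).

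Dusp1 encodes the phosphatase MKP-1, which switches off p38 and JNK. It was at 239, 276, 269.9 and 292 CPM at day 0, 909.7, 716, 690.4 and 845 after fat, 589, 754, 709 and 942 after lung, and 215, 162, 148 and 261 after mammary co-culture. Fat and lung libraries were all above day 0; 3 of the mammary libraries were below it and the other (261 CPM) was within it. Dusp1 rose by log2 1.55 ± 0.17 with fat and 1.48 ± 0.17 with lung (edgeR adjusted p = 6.1e-07 and 1.4e-06). With mammary it fell by 0.45 ± 0.17 (adjusted p = 0.0496), a call lost on leaving out any day-0 library or mammary replicate 1, 2 or 3 (log2 -0.62 to -0.34 over the 12 alternatives, adjusted p up to 0.16). In the GENCODE M21 annotation Dusp1 overlaps Ergic1, Junb overlaps Prdx2 and Hspa1a overlaps Gm20481, each a protein-coding gene on the other strand. Hspd1 and Hspe1 overlap each other in the same way, and Jun, Jund, Dusp5 and Zfp36 overlap antisense genes. The sources used here do not give the strand setting of the counting, so reads of such partners cannot be told apart.

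Dusp5, a nuclear ERK phosphatase, held 2, 2, 2 and 7 reads at day 0. It was at 14.1, 14.7, 7.82 and 16.04 CPM after fat, 8.44, 14.8, 10.9 and 18.7 after lung, and 1.91, 1.05, 1.79 and 1.99 after mammary co-culture. Fat and lung libraries were all above 7 CPM and all others were below 2 CPM. The fitted log2 changes of 4.13 ± 0.39 and 4.14 ± 0.39 rest on those few day-0 reads, and mammary was not called (1.18 ± 0.50, edgeR adjusted p = 0.092).

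Dusp2, an ERK and p38 phosphatase of immune cells, was at 24.1, 29.0, 20.9 and 21.7 CPM at day 0, 43.3, 44.0, 41.3 and 69.3 after fat, 37.7, 39.7, 43.6 and 52.7 after lung, and 9.89, 9.64, 15.6 and 26.0 after mammary co-culture. Fat and lung libraries lay above all day-0 libraries and mammary overlapped them. Dusp2 rose by log2 1.05 ± 0.25 with fat and 0.87 ± 0.26 with lung (edgeR adjusted p = 0.0044 and 0.016). The lung call was lost without day-0 replicate 3 or lung replicate 4 (adjusted p up to 0.057).

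Zfp36 encodes tristetraprolin, which destabilises cytokine mRNAs. It was at 169.6, 253, 133 and 236 CPM at day 0, 591, 452, 466 and 568 after fat, 369, 428, 396 and 430.0 after lung, and 209, 229, 217 and 316 after mammary co-culture. Fat and lung stood clear of day 0 and mammary overlapped it. Ier2, a nuclear early response protein, was at 114, 124, 118 and 141 CPM at day 0, 579, 569.7, 489.6 and 576 after fat, 452, 394, 413 and 361 after lung, and 273, 231, 189.7 and 331 after mammary co-culture. The 4 groups did not overlap for Ier2, which rose by log2 2.15 ± 0.14, 1.70 ± 0.14 and 1.04 ± 0.14 (edgeR adjusted p = 1.5e-09, 2.6e-08 and 1.1e-05).

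Btg2, an antiproliferative deadenylation cofactor, was at 15.1, 34.5, 29.5 and 31.7 CPM at day 0, 144, 139, 123 and 176 after fat, 107, 109, 131 and 156 after lung, and 59.8, 57.0, 58.7 and 95.5 after mammary co-culture. Rhob, a short-lived endosomal GTPase, was at 84.2, 79.1, 76.7 and 90.0 CPM at day 0, 313, 259.8, 236 and 258 after fat, 226, 250.1, 218 and 219.6 after lung, and 159, 174, 107 and 150.1 after mammary co-culture. For both, all co-culture libraries were above day 0, and mammary lay below fat and lung. Btg2 rose by log2 2.41 ± 0.23, 2.20 ± 0.23 and 1.31 ± 0.23, and Rhob by 1.69 ± 0.13, 1.47 ± 0.13 and 0.84 ± 0.13. Ier5, a regulator of HSF1 dephosphorylation, was at 1.03 to 2.93 CPM at day 0, 9.17 to 18.4 after fat, 13.2 to 21.04 after lung and 3.68 to 6.54 after mammary co-culture, and was called higher in all 3.

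**Figure D3:**
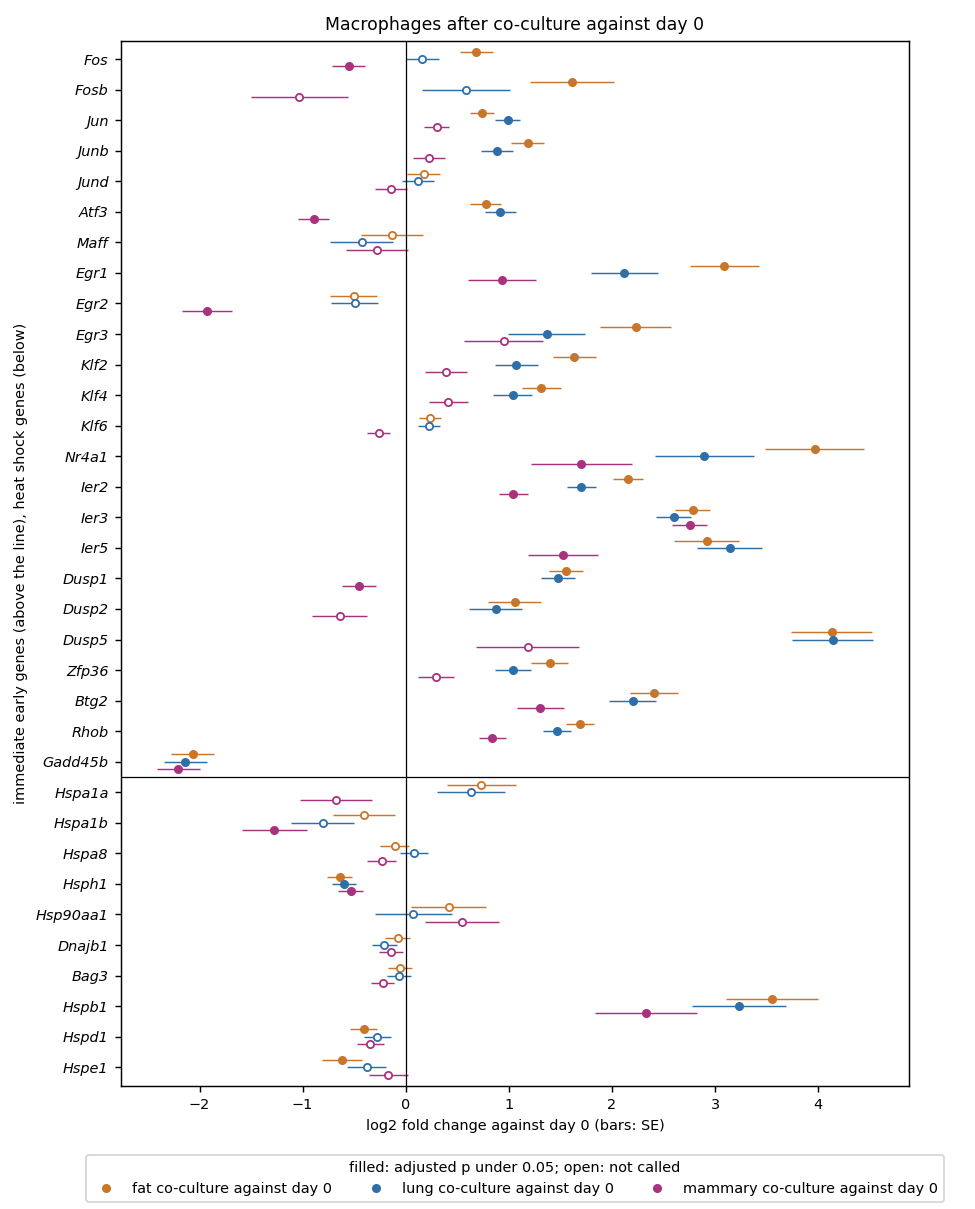
Log2 fold change against day 0 (horizontal axis, bars SE) for 34 genes in macrophages after fat, lung and mammary co-culture; filled points had adjusted p under 0.05 by edgeR. Mammary points lie left of fat and lung points for most immediate early genes, and most heat shock genes lie near 0.

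The heat shock genes stayed nearer their day-0 levels. Hspa8, the constitutive HSC70 chaperone and the most counted of them, was at 153 to 249 CPM at day 0, 171 to 212 after fat, 207 to 222 after lung and 147 to 199 after mammary co-culture, and was not called in any. Hsph1, the HSP110 exchange factor of HSP70, was at 55.8, 40.0, 56.9 and 52.4 CPM at day 0, 32.2, 36.0, 29.9 and 34.2 after fat, 32.5, 38.2, 31.8 and 33.7 after lung, and 38.1, 33.0, 34.8 and 36.1 after mammary co-culture. All co-culture libraries lay below day 0, by log2 -0.64 ± 0.12, -0.60 ± 0.12 and -0.53 ± 0.12 (edgeR adjusted p = 0.00042, 0.00084 and 0.0021).

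The stress-inducible Hspa1a was at 21.3, 26.4, 13.8 and 19.9 CPM at day 0, 33.4, 21.8, 38.4 and 40.3 after fat, 30.3, 32.9, 37.3 and 24.9 after lung, and 18.7, 5.61, 6.25 and 19.1 after mammary co-culture. Each co-culture overlapped day 0 and none was called. Its copy Hspa1b was at 9.44 to 18.2 CPM at day 0, 7.11 to 13.8 after fat, 6.90 to 11.1 after lung and 2.63 to 9.57 after mammary co-culture, and fell by 1.27 ± 0.31 on the log2 scale with mammary (edgeR adjusted p = 0.0047).

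Hspb1, the small heat shock protein HSP27, held 1 or 2 reads in each day-0 library and reached 2.86 to 5.73 CPM after fat, 2.36 to 4.15 after lung and 1.08 to 2.39 after mammary co-culture. It was called higher in all 3. The fibroblasts of the same co-cultures held Hspb1 at mean levels of 569, 370.4 and 137 CPM, and the fibroblast marker sums given above rose with it; their part in the result was not tested.

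The mitochondrial chaperonins Hspd1 (HSP60) and Hspe1 (HSP10) work as a pair. Hspd1 was at 152, 96.4, 126 and 149 CPM at day 0, 96.1, 106, 90.8 and 102 after fat, 126, 115, 94.3 and 99.7 after lung, and 114, 106, 93.6 and 99.5 after mammary co-culture. Hspe1 was at 152, 107, 129 and 177 CPM at day 0, 99.7, 115, 78.5 and 75.0 after fat, 148, 87.7, 96.8 and 102 after lung, and 103, 111, 159 and 130.0 after mammary co-culture. Every co-culture overlapped day 0 for both. They were called lower with fat (log2 -0.41 ± 0.13 and -0.62 ± 0.19; edgeR adjusted p = 0.024 and 0.019). Either call was lost without day-0 replicate 1 or 4 or fat replicate 3, and that of Hspd1 also without fat replicate 1 and that of Hspe1 also without fat replicate 4 (adjusted p up to 0.093 and 0.074). Dnajb1, Bag3 and Hsp90aa1, the HSP40 and HSP70 co-chaperones and the inducible HSP90, were not called in any co-culture.

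Compared between organs at the same day, macrophages from fat co-cultures held 22 of the 34 genes higher than those from mammary co-cultures and 0 lower, where 1.67% of all genes were called higher and 1.05% lower (2.72% in all). Lung against mammary gave 17 higher and 0 lower, where 2.45% and 3.15% of all genes were called (5.59% in all). These comparisons share the mammary libraries. Dusp1 differed by log2 2.01 ± 0.17 and 1.93 ± 0.17 (edgeR adjusted p = 6.4e-07 and 3.6e-07), Atf3 by 1.67 ± 0.15 and 1.80 ± 0.15, Dusp5 by 2.95 ± 0.33 and 2.96 ± 0.33, and Egr2 by 1.42 ± 0.25 and 1.43 ± 0.25. In each of these genes no mammary library overlapped either other co-culture.

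All 17 genes called in lung against mammary were also called in fat against mammary. They were Atf3, Btg2, Dusp1, Dusp2, Dusp5, Egr1, Egr2, Fos, Fosb, Hspa1a, Ier2, Ier5, Jun, Junb, Klf6, Rhob and Zfp36. In fat against mammary, 17 of the 22 calls held in all 12 alternatives, and Egr3, Hspa1a, Hspb1, Jun and Klf6 were lost in at least 1. In lung against mammary 12 of 17 held, and Btg2, Egr1, Fosb, Hspa1a and Junb were lost in at least 1. Hspa1a was the one HSP70 gene called, by log2 1.41 ± 0.34 and 1.31 ± 0.34 (edgeR adjusted p = 0.036 and 0.034), and lost its fat call without fat replicate 1, 3 or 4 or mammary replicate 2 or 3 and with the replicate block (adjusted p up to 0.12). Mammary replicates 2 and 3, at 5.61 and 6.25 CPM, were its low libraries.

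Fat against lung gave 0 calls by edgeR, where 2.06% of all genes were called higher and 1.04% lower (3.10% in all). At an unadjusted p under 0.05, 7 of the 34 were higher and 1 lower, where 11.9% of all genes passed. DESeq2 called 3, all higher in fat (Fos, Egr1 and Ier2). The share of all genes that DESeq2 called was not computed. For 10 of the 34 genes every fat library was above every lung library, which held for 5.37% of all genes. Ier2 differed by log2 0.45 ± 0.14 and Fos by 0.53 ± 0.16 (edgeR adjusted p = 0.093 and 0.087). The group mean of an immediate early gene was highest after fat co-culture in 17 of 24 genes, after lung in 4, at day 0 in 3 and after mammary in 0. It was lowest at day 0 in 14, after mammary in 9 and after lung in 1. The order of group means was not computed over all genes.

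Single libraries moved many immediate early genes at once. Mammary replicate 4 was the highest of its group for 18 of the 24, at a median of 1.24 times the group mean. Fat replicate 3 was the lowest of its group for 17. Such ranks were not computed over all genes. Without mammary replicate 4, 21 genes were called in fat against mammary and 19 in lung against mammary. Without fat replicate 3, 19 were called in fat against mammary.

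Among related immediate early genes outside the list, also chosen with earlier results of these data known, 28 were tested in macrophages. With fat 17 were called higher and 0 lower, where 15.8% and 14.4% of all genes were. With lung 18 and 2 were, against 14.6% and 13.2%, and with mammary 10 and 3, against 14.4% and 11.8%. Dusp6, an ERK phosphatase, rose by log2 1.93 ± 0.12 with fat, 1.40 ± 0.12 with lung and 1.53 ± 0.12 with mammary. Trib1, a pseudokinase that targets CEBP proteins for degradation, rose by 2.55 ± 0.18 with fat and 2.28 ± 0.18 with lung. Ccn1, which encodes a secreted matricellular protein, held 2 to 7 reads in the day-0 libraries and was called higher in all 3 co-cultures, at 17.9 to 31.5 CPM after fat, 11.8 to 16.3 after lung and 19.6 to 27.9 after mammary.

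Of 18 related heat shock genes, 2 were higher and 3 lower with fat, where 15.8% and 14.4% of all genes were. With lung 1 and 4 were, against 14.6% and 13.2%, and with mammary 1 and 4, against 14.4% and 11.8%. Hspb8, a small heat shock protein that works with BAG3, had the smallest adjusted p in each. It held 0 or 1 read in the day-0 libraries and reached 6.84 to 10.9 CPM after fat, 2.37 to 4.32 after lung and 3.51 to 5.74 after mammary co-culture. Ahsa1, which activates the HSP90 ATPase, fell in each, by 0.95 ± 0.14, 0.61 ± 0.13 and 0.94 ± 0.13 on the log2 scale. The fibroblasts of the same co-cultures held Ccn1 at 666 to 1999 CPM and Hspb8 at 136 to 283 CPM, and the part of fibroblast RNA in the macrophage values was not tested.

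Between organs, 7 of 28 related immediate early genes were called higher with fat than with mammary and 0 lower, where 1.67% and 1.05% of all genes were. With lung against mammary 5 were higher and 2 lower, where 2.45% and 3.15% were. The 2 lower ones were Ccn2, by 1.80 ± 0.30, and Nfkbia, which encodes the NF-κB inhibitor IκBα, by 0.91 ± 0.16. Ccn2, a matricellular protein gene like Ccn1, was at 4.55 to 11.8 CPM after lung and 22.6 to 39.9 after mammary co-culture, and at 292 to 472 and 277 to 914 CPM in the fibroblasts of those co-cultures. Fibroblast markers in the macrophage libraries were also lower after lung (132 to 265 CPM) than after mammary co-culture (425 to 561), and their part in these differences was not tested.

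In the fit without a replicate block, few of these genes were called in fibroblasts on co-culture. With fat 1 gene was called higher and 0 lower, where 0.0403% and 0.161% of all genes were called. With mammary 1 and 0 of 33 were, where 2.36% and 1.29% were (3.65% in all), so the share of members is near that of all genes. A fit with the replicate number as a block, given below, called more of them in mammary fibroblasts. With lung 0 were called by edgeR, where 1.17% of all genes were called higher and 0.145% lower. At an unadjusted p under 0.05 lung gave 4 higher and 2 lower of 33, where 9.46% of all genes passed. DESeq2 called Klf2 and Klf6 higher, and its share over all genes was not computed. The sums of macrophage markers in fibroblast libraries were 339 to 426 CPM in fat mono-culture and 612 to 3548 in co-culture, 387 to 793 and 1982 to 3043 in lung, and 34.3 to 661 and 762 to 2251 in mammary.

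Klf2 was the gene called in fat fibroblasts. It was at 15.6 CPM in replicate 1 and 11.9 in the library without a labelled number in mono-culture, and 52.4, 50.9 and 30.3 in co-culture. No library overlapped, which with co-culture higher held for 16.7% of all genes. Klf2 rose by log2 1.69 ± 0.27 (edgeR adjusted p = 0.019). The call was lost without mono-culture replicate 1 (adjusted p = 0.077), the unnumbered library (0.26), or co-culture replicate 1 (0.063) or 2 (0.071). In lung fibroblasts Klf2 was at 19.0, 18.3 and 11.9 CPM in mono-culture and 34.3, 32.3 and 27.9 in co-culture, again without overlap (log2 0.94 ± 0.23, edgeR adjusted p = 0.053). Such separation in lung, with co-culture higher, held for 10.8% of all genes. In mammary fibroblasts Klf2 was at 53.0, 62.3, 60.2, 82.1 and 69.5 CPM in mono-culture and 90.2, 69.5, 86.2, 60.7 and 80.4 in co-culture, which overlapped. The macrophages of the fat co-culture held Klf2 at 349.6 to 507 CPM, and macrophage markers rose in these fibroblast libraries as given above; their part in the Klf2 result was not tested.

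Hspa1a was the gene called in mammary fibroblasts. It was at 8.95, 10.5, 8.26, 9.24 and 7.23 CPM in mono-culture and 19.2, 26.4, 14.7, 14.2 and 21.8 in co-culture, for libraries 1 to 5. All 5 co-culture libraries were above all 5 mono-culture libraries, by log2 1.13 ± 0.20 (edgeR adjusted p = 0.0033). The macrophages of the mammary co-culture held it at 5.61 to 19.1 CPM, on the scale of their own table. The call held in 16 of 17 alternatives and was lost in libraries 1 and 3 alone (adjusted p = 0.14). Its copy Hspa1b was at 30.0, 40.2, 19.4, 11.9 and 20.1 CPM in mono-culture and 71.2, 50.4, 39.8, 14.8 and 55.9 in co-culture. Each Hspa1b co-culture library was above the mono-culture library of its number, while the groups overlapped.

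The other organs gave no call for the heat shock genes. In fat fibroblasts Hspa1b was at 33.9 CPM in mono-culture replicate 1, 20.9 in the unnumbered library and 74.9, 113 and 59.0 in co-culture (log2 1.59 ± 0.53, edgeR adjusted p = 0.27). The groups did not overlap, which with 2 and 3 libraries held with co-culture higher for 16.7% of all genes. In lung fibroblasts Hspb1 was at 698, 513 and 636 CPM in mono-culture and 361, 271 and 479.7 in co-culture (log2 -0.73 ± 0.29, edgeR adjusted p = 0.36). Those groups did not overlap either, with co-culture lower, as for 9.38% of all genes.

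Mammary fibroblast libraries of the same number deviated together, so a fit with the replicate number as a block was also made. It called 6 genes, where it called 4.12% of all genes higher and 2.77% lower. Higher were Hspa1a (log2 1.10, adjusted p = 0.0042), Hspa1b (0.90, 0.022) and Jun (0.35, 0.024). Lower were Egr2 (-0.91, 0.013), Hspd1 (-0.59, 0.014) and Hsph1 (-0.46, 0.032). Egr2 was at 14.3, 25.9, 13.7, 17.7 and 17.8 CPM in mono-culture and 7.56, 16.8, 5.77, 9.59 and 9.06 in co-culture, lower in co-culture for each number. Hsph1 was at 93.5, 96.1, 76.1, 75.3 and 78.6 CPM and then 72.4, 58.3, 58.0, 52.9 and 62.8, with no overlap between the groups. A test of whether the co-culture effect differed between organs called 0 of 33 genes for each of the 3 pairs of organs by edgeR. Over all genes it called 0% for fat against lung and 0.0242% for fat against mammary. For lung against mammary it called 0.0886% higher and 0.00805% lower (0.0966% in all). At an unadjusted p under 0.05 it gave 7 for fat against lung, 2 for fat against mammary and 4 for lung against mammary, where 6.55%, 7.28% and 6.06% of all genes passed. DESeq2 called 1, Klf2 in fat against mammary, and 0 in the other pairs, again without a share over all genes.

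**Figure D4:**
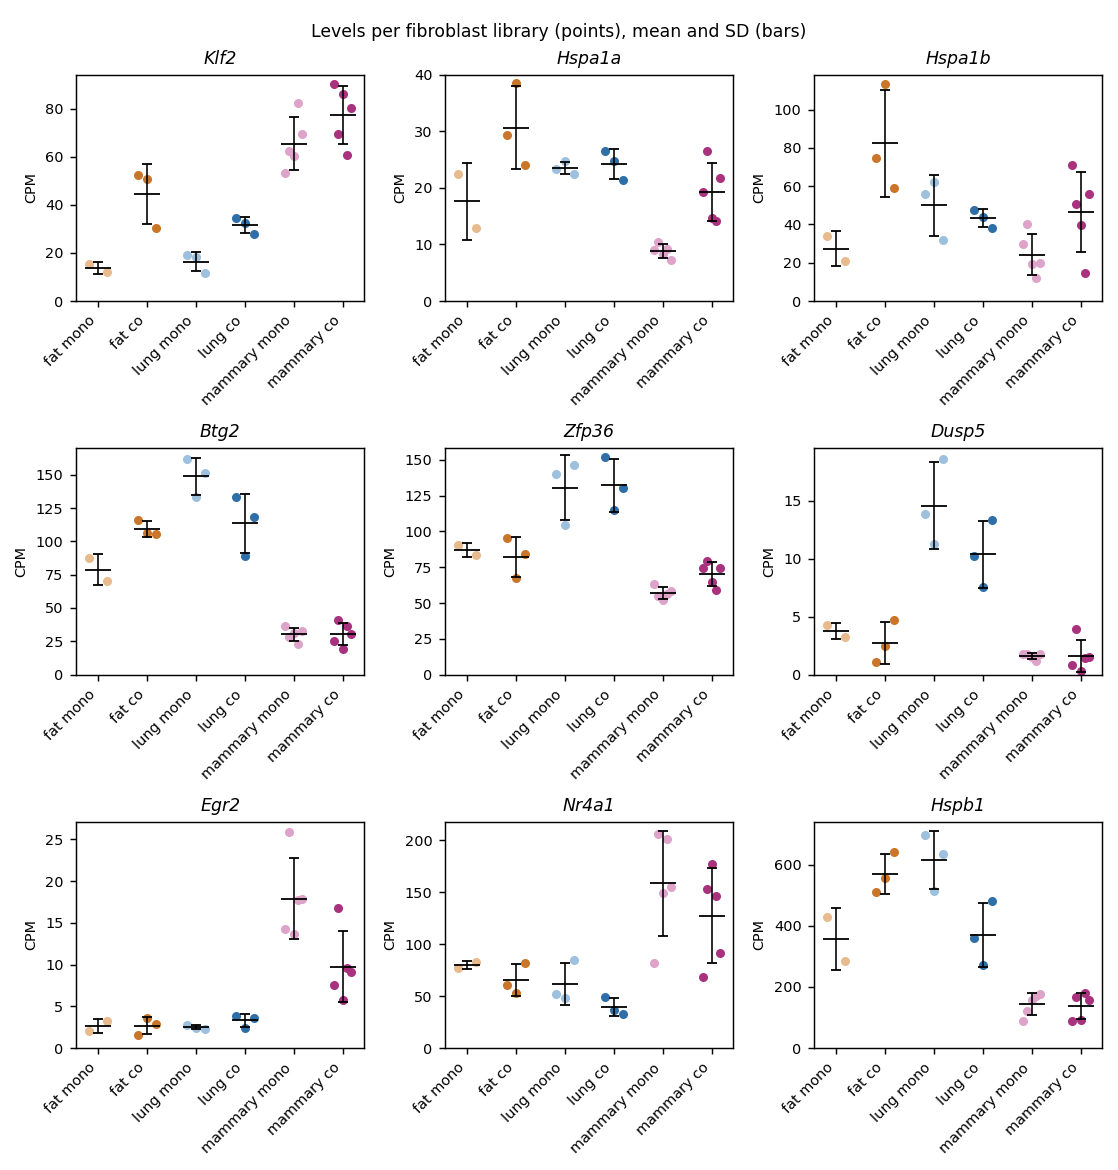
CPM (vertical axis, from 0) of 9 genes in each fibroblast library (points) in mono-culture and co-culture by organ, with mean and SD (bars; n = 2 and 3 for fat, 3 and 3 for lung, 5 and 5 for mammary). Klf2 is higher in fat co-culture than fat mono-culture and Hspa1a in mammary co-culture than mammary mono-culture, while Btg2, Zfp36, Dusp5, Egr2 and Hspb1 separate mammary from lung in both cultures.

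The organ of origin separated the fibroblasts more than co-culture did, in both directions. In mono-culture, lung against mammary gave 8 genes higher and 9 lower of 33, where 21.2% and 19.1% of all genes were called, so the share of members is near that of all genes. Btg2 was at 162, 134 and 151 CPM in lung and 36.3, 28.1, 30.9, 23.1 and 32.7 in mammary mono-culture. Dusp5 was at 13.9, 11.3 and 18.7 CPM in lung and 1.79, 1.78, 1.52, 1.22 and 1.81 in mammary mono-culture. Hspb1 was at 698, 513 and 636 CPM in lung and 90.2, 122, 157, 170.1 and 176 in mammary mono-culture. None of these overlapped, and the log2 differences were 2.30 ± 0.19, 3.14 ± 0.45 and 2.11 ± 0.26 (edgeR adjusted p = 2.5e-08, 1.6e-05 and 2.6e-06). Every lung library lay above every mammary library in mono-culture for 22.9% of all genes, and below for 20.6%.

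Zfp36, Hspa1a and Fos were also higher in lung. Zfp36 was at 140.2, 105 and 147 CPM in lung and 63.3, 55.2, 51.8, 56.6 and 58.3 in mammary mono-culture. Hspa1a was at 23.3, 24.7 and 22.5 CPM in lung, above the mammary values given above. Fos was at 88.7, 61.3 and 83.2 CPM in lung and 44.5, 36.0, 17.8, 23.6 and 35.2 in mammary mono-culture. None of these overlapped, and the log2 differences were 1.19 ± 0.14, 1.41 ± 0.22 and 1.30 ± 0.29 (edgeR adjusted p = 1.5e-06, 4.3e-05 and 0.0014).

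Other genes were lower in lung than in mammary fibroblasts. Jun was at 50.9, 44.1 and 42.0 CPM in lung and 80.3, 102, 75.0, 114 and 105 in mammary mono-culture. Klf6 was at 56.4, 52.6 and 53.4 CPM in lung and 117, 128, 106, 80.4 and 114 in mammary mono-culture. Neither overlapped, with log2 differences of -1.06 ± 0.16 and -1.01 ± 0.18 (edgeR adjusted p = 3.9e-05 and 0.00019). Egr2 was at 2.78, 2.401 and 2.33 CPM in lung mono-culture, all below the mammary values given above (log2 -2.83 ± 0.36), and so was Klf2 (-1.997 ± 0.22). Nr4a1 was at 52.4, 48.2 and 84.5 CPM in lung and 81.5, 207, 149, 201 and 155.1 in mammary mono-culture, with 1 lung library above the lowest mammary library (log2 -1.36 ± 0.33, edgeR adjusted p = 0.0026). The Nr4a1 call was lost with mammary libraries 1 and 3 alone. In co-culture the same comparison gave 8 higher and 10 lower, where 16.9% and 15.3% of all genes were called. Fat against mammary gave 5 higher and 6 lower in mono-culture, where 14.1% and 9.20% were called, and 7 and 6 in co-culture, where 25.4% of all genes were called in either direction. Fat against lung gave 3 and 3 in mono-culture (5.48% and 3.80% of all genes, 9.28% in all) and 2 and 3 in co-culture (4.26% and 5.15%).

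Lung mono-culture replicate 3 is labelled lung in its title and mammary fat pad in its tissue field. Without it, lung against mammary in mono-culture gave 16 calls instead of 17, and fat against lung gave 1 instead of 6. Mesothelial markers summed to 593 to 2268 CPM in every fat and lung fibroblast library and to at most 20.6 in any mammary library. Keratins Krt8 and Krt18 summed to 73.7 to 276 CPM against at most 2.24. The part of such cells in the organ differences was not tested.

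In the header of the authors' normalised fibroblast table, mammary libraries 2, 4 and 5 carry their number before the culture word and libraries 1 and 3 after it, a difference that the raw count columns and sample titles do not show. With culture in the model, 8 of 33 genes were higher and 1 lower in libraries 2, 4 and 5, where 14.1% and 12.8% of all genes were. Hspa8 was at 349 and 324 CPM in mono-culture libraries 1 and 3 and 138, 186 and 184 in 2, 4 and 5. In co-culture Hspa8 was at 293 and 285 CPM in libraries 1 and 3 and 154.7, 131 and 160.4 in 2, 4 and 5. Hspd1 was ordered the other way, at 176 and 154 CPM against 315, 296 and 266 in mono-culture and 90.5 and 92.0 against 259.8, 204 and 192 in co-culture. The groups did not overlap in either culture, with log2 differences of -0.97 ± 0.13 for Hspa8 and 1.04 ± 0.16 for Hspd1 (edgeR adjusted p = 8.3e-05 and 0.00031).

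Hspe1, Jun, Jund, Egr2, Ier2, Ier3 and Hspb1 were the others higher in libraries 2, 4 and 5. Both forms of name hold each culture, so the co-culture comparison could also be made with the form as a term. It then called 5 genes (Jun and Hspa1a higher; Egr2, Hsph1 and Hspd1 lower), where 3.78% of all genes were higher and 2.69% lower.

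**Figure D5:**
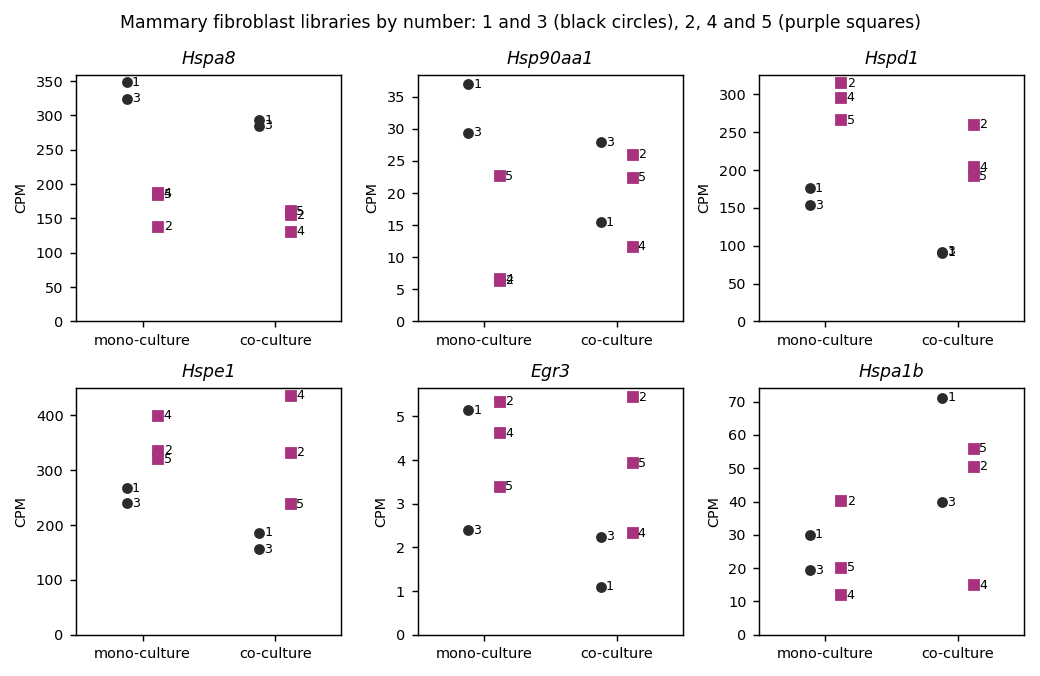
CPM (vertical axis, from 0) of 6 genes in the 10 mammary fibroblast libraries by culture, each point labelled with its library number; circles are libraries 1 and 3 and squares 2, 4 and 5. Circles lie above squares for Hspa8 and below them for Hspd1 and Hspe1 in both cultures.

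Across cell types, immediate early genes had higher mean CPM in macrophages than in fibroblasts of the same co-culture in 22 of 24 genes for fat, 21 for lung and 15 for mammary. The heat shock genes were higher in macrophages in 2 of 10, 3 of 10 and 1 of 10. The tables were scaled separately, so these are levels side by side without a test or a share over all genes. Atf3 had means of 811, 892 and 255 CPM in macrophages and 9.46, 8.82 and 16.1 in fibroblasts. Nr4a1 had means of 111, 52.3 and 23.0 CPM in macrophages and 65.4, 39.6 and 127 in fibroblasts, so the higher cell type differed between mammary and the other organs. Gadd45b was lower in macrophages in all 3, at 46.7, 44.3 and 42.4 CPM against 281, 235 and 239.9 in fibroblasts.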

How the data were processed

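Read counts per gene were deposited by the authors in 2 tables, 1 of macrophage and 1 of fibroblast libraries. Per the submitters' processing notes bcl2fastq, STAR 2.4.2a, HTSeq and mm10 were used; the sources used here do not give the annotation, the strand setting or any use of molecular identifiers. The authors' deposited normalised values were not used, only the library names in their header. The genes and lists were chosen with earlier results of these data known. The rule let any called gene be named and gave library values for called ones with a group mean of at least 20 CPM. Exceptions chosen after seeing values are Dusp5, given by library below that level, and the fibroblast organ comparisons, where part of the called genes are given. Further exceptions are genes given by library in fibroblasts on co-culture though the main fit did not call them there. They are Klf2 in lung and mammary, Hspa1b in fat and mammary, Hspb1 in lung, and Egr2 and Hsph1 in mammary fibroblasts. Related genes are named from the 4 with the smallest adjusted p in a comparison.

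Counts were scaled by TMM and fitted with edgeR 4.0.16 (R 4.3.3): filterByExpr with a minimum count of 10, robust quasi-likelihood F tests in 1 fit per table, and Benjamini-Hochberg adjustment over all genes of the table at 0.05. SE is the log2 change divided by the square root of F. All groups of a table shared 1 estimate of the spread. DESeq2 1.42.0, library totals, no filter, a replicate block and leaving out each library were alternatives; those on the name form of mammary libraries were added after seeing the data. On simulated counts for the fat against day 0 comparison (10151 genes) 67% of log2 changes of 1 and 94% of 2 were recovered. For mammary fibroblasts (12104 genes) it was 56% and 82%. Each simulation changed 100 genes at each size, fewer in all than the 3106 and 453 genes called in the data. Recovery in the data may therefore differ from these rates.

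Same-numbered mammary fibroblast libraries correlated in their deviations from group means (r 0.312 to 0.589 over 5 pairs, all above 0.1), so the block is given for them. The other groups did not meet that limit. No pair of libraries of a group agreed within sampling noise (chi-square per degree of freedom 3.47 to 72.2 over 54 pairs). Promoters came from RefSeq GRCm38.p6.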

Additional observations from a re-analysis of the deposited data

Results flagged for a closer look

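Of 204 gene and group combinations with 4 or 5 libraries, 9 (4.41%) held a library far from its group by Dixon's test, and chance flags about 1 in 20. In macrophages, lung replicate 2 was low for Fosb (10.1 CPM) and fat replicate 3 was low for Ier2 (489.6 CPM). High libraries were day-0 replicate 2 for Maff (20.5 CPM) and Gadd45b (321 CPM), fat replicate 1 for Klf4 (118 CPM), fat replicate 4 for Dusp2 (69.3 CPM) and mammary replicate 4 for Btg2 (95.5 CPM). In mammary co-culture fibroblasts, replicate 4 was high for Atf3 (40.7 CPM) and replicate 5 for Dnajb1 (66.8 CPM). The decreases of Gadd45b against day 0 were called without day-0 replicate 2 as well.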

How the results depend on the processing

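Shares over all genes were computed for the edgeR fit described above. In mammary fibroblasts on co-culture they were also computed for the replicate block and the name form. Other settings have no such share. Counts of called genes changed by more than 1.5 times as follows, by setting. DESeq2 gave 3 for macrophages in fat against lung (0 by edgeR), 2 for lung fibroblasts in co-culture against mono-culture (0), 4 for mammary fibroblasts (1) and 1 for the co-culture effect in fat against mammary (0). The replicate block gave 2 for macrophages in fat against lung (Fos and Nr4a1), 2 for lung fibroblasts (Jun and Klf2) and 6 for mammary fibroblasts, and could not be fitted for fat fibroblasts, which share 1 number. Macrophage libraries (r -0.361 to 0.306, 9 of 24 correlating best with their own number) and lung fibroblasts (r 0.042 to 0.357, 3 of 3 best) were taken as sharing only a number. In mammary fibroblasts the form of name as a term gave 5, and libraries 1 and 3 alone gave 0.

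Leaving out 1 library gave 0 to 1 for fat fibroblasts in co-culture against mono-culture (0 in 4 of 5), and 1 to 3 for mammary (3 without co-culture replicate 4). Fat against lung gave 0 to 4 in co-culture (5 with all libraries; 0 without fat replicate 2 or lung replicate 1) and 1 to 4 in mono-culture (6 with all; 1 without fat replicate 1, the unnumbered fat library or lung replicate 3). Fat against mammary gave 7 to 13 in co-culture (13 with all; 7 without fat replicate 1) and 4 to 11 in mono-culture (11 with all; 4 without fat replicate 1). The macrophage counts against day 0 were 22 to 24 for fat, 19 to 22 for lung and 12 to 17 for mammary. Those against mammary were 18 to 21 for fat and 13 to 19 for lung. No called gene reversed. The cause of these moves was not tested. Depth limits genes near 3 counts, such as Dusp5, Egr3 and Hspb1 at day 0.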

Other observations

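In mono-culture, lung against mammary gave 11 related immediate early genes higher and 9 lower of 31 tested, and 3 and 3 of 18 related heat shock genes, where 21.2% of all genes were higher and 19.1% lower. Trib1 was higher in lung by log2 2.44 ± 0.17 and Dusp6 by 3.20 ± 0.39. Ppp1r15a, which encodes the eIF2α phosphatase subunit GADD34, had a log2 difference of -1.58 ± 0.20 and Myc, the growth-promoting transcription factor, of -2.97 ± 0.39 (edgeR adjusted p = 3.2e-09, 2.8e-06, 3.5e-06 and 6.4e-06 in that order). On co-culture of mammary fibroblasts Nfkbia rose by 1.09 ± 0.18 and Ccn1, which encodes a matricellular protein, by 0.74 ± 0.17, and Dusp4, another ERK phosphatase, fell by 1.19 ± 0.28 (edgeR adjusted p = 0.0024, 0.020 and 0.022).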
